A study of Mus musculus with 6 samples.

Results

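Autophagy packs cell material into a double-membrane vesicle, the autophagosome, and delivers it to the lysosome. Proteins of the ATG8 family (the LC3 and GABARAP proteins) are cut at their C-terminus by ATG4 proteases, attached to a lipid of the growing membrane through the exposed glycine, and so decorate the vesicle. Cargo receptors hold a cargo, often one tagged with ubiquitin, with one part of the protein and bind ATG8 with another, and several of them are degraded together with what they carry. Here, 10 mouse genes of this step were examined, chosen by name from the 26898 genes of the deposited table. They were 5 ATG8 genes (Map1lc3a, Map1lc3b, Gabarap, Gabarapl1 and Gabarapl2) and 5 cargo receptor genes (Sqstm1, Nbr1, Optn, Tax1bp1 and Calcoco1).

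RNA was sequenced from primary MEFs (mouse embryonic fibroblasts), connective tissue cells isolated from embryos and cultured to passage 3, on a C57BL/6 background. WT cells (WT 4, 5 and 8) were Kansl1fl/fl, that is, with recombination sites around part of Kansl1 on both alleles, and KO cells (KO 3, 7 and 10) were Kansl1fl/fl/CAG-cre, with the same alleles and a tamoxifen-inducible Cre recombinase driven by the broadly active CAG promoter. All 6 samples had been in 1 μM tamoxifen over 48 h, in fed medium with 10% serum per the labels, whereas the culture protocol of the study names more serum. No Cre-positive cells with intact Kansl1 were analysed here, so loss of Kansl1 and presence of Cre cannot be told apart. The cells of each group came from 3 mice per the study, while which embryo or litter a sample came from was not stated.

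Expression is given as TPM, in which reads are divided by gene length and scaled to the same total per sample, so that levels of different genes can be compared. The total includes Gm23935 and Gm24270, RNAs of 57 bp that held 15.5% to 25.6% and 2.65% to 4.53% of TPM per sample. The TPM of every other gene therefore depends on their level. Between 17655495 (KO 3) and 27718259 (KO 7) reads were assigned to genes, and 22812595 to 24263082 in the WT samples. Kansl1, the targeted gene and a subunit of the NSL histone acetyltransferase complex, was at 28.5, 26.7 and 24.4 TPM in WT and 13.7, 15.8 and 14.4 TPM in KO samples, so each KO sample was below each WT sample, at 55.1% of the WT mean. Its log2 fold change on log2(TPM + 1) was -0.82 (SE 0.11, limma adjusted p = 0.000859). These values cover the whole gene. RNA of the deleted part was not measured separately, and the extent of recombination was not tested. All 10 fibroblast markers were expressed, and their summed level spanned 10280 to 14860 TPM in WT and 11010 to 14440 TPM in KO samples. The limma test asks for an adjusted p under 0.005 together with a log2 fold change beyond 0.5 or -0.5. Of these markers, 0 passed it, beside 1.64% called higher and 9.03% called lower of all tested genes. Unadjusted p was under 0.05 for 1 marker in the positive and 0 in the negative direction, beside 12.2% and 27.2% of all tested genes. Macrophage markers were low but summed to 38.3 to 46.0 TPM in WT and 84.6 to 169.3 TPM in KO samples, with 1 of 7 tested (Lyz2) called higher, beside 1.64% of all tested genes, and Ptprc, Itgam and Fcgr1 under 1 TPM in every sample; their part in the results that follow was not tested. Epithelial markers summed to 40.4 to 45.8 TPM in WT and 49.4 to 66.5 TPM in KO samples, with Epcam and Cdh1 under 1 TPM throughout. In RNA from bulk cultures, a change in the number of cells of a type and a change in RNA per cell cannot be told apart.

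Of the 10 genes, Sqstm1 was higher and Calcoco1 was lower in KO MEFs. The other 8 did not pass the test. All 10 had passed the filter on low expression, which asked for a mean of 1 TPM or more in WT or in KO cells and which 14799 genes passed. Among those, 1.64% were called higher and 9.03% were called lower, so that 1 call in each direction among 10 genes is to be read against these shares. The shares themselves moved with the samples: with 1 sample left out, between 84 (without KO 7) and 252 (without WT 4) genes were called higher and between 617 (without WT 5) and 938 (without KO 7) were called lower, against 242 and 1337 with all 6. The WT and KO samples did not overlap for 6 of the 10 genes, beside 43.2% of all tested genes. The median log2 fold change was 0.22 over the 10 genes, 0.30 over the ATG8 genes and -0.13 over the cargo receptor genes, beside -0.07 over all tested genes.

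**Figure D1:**
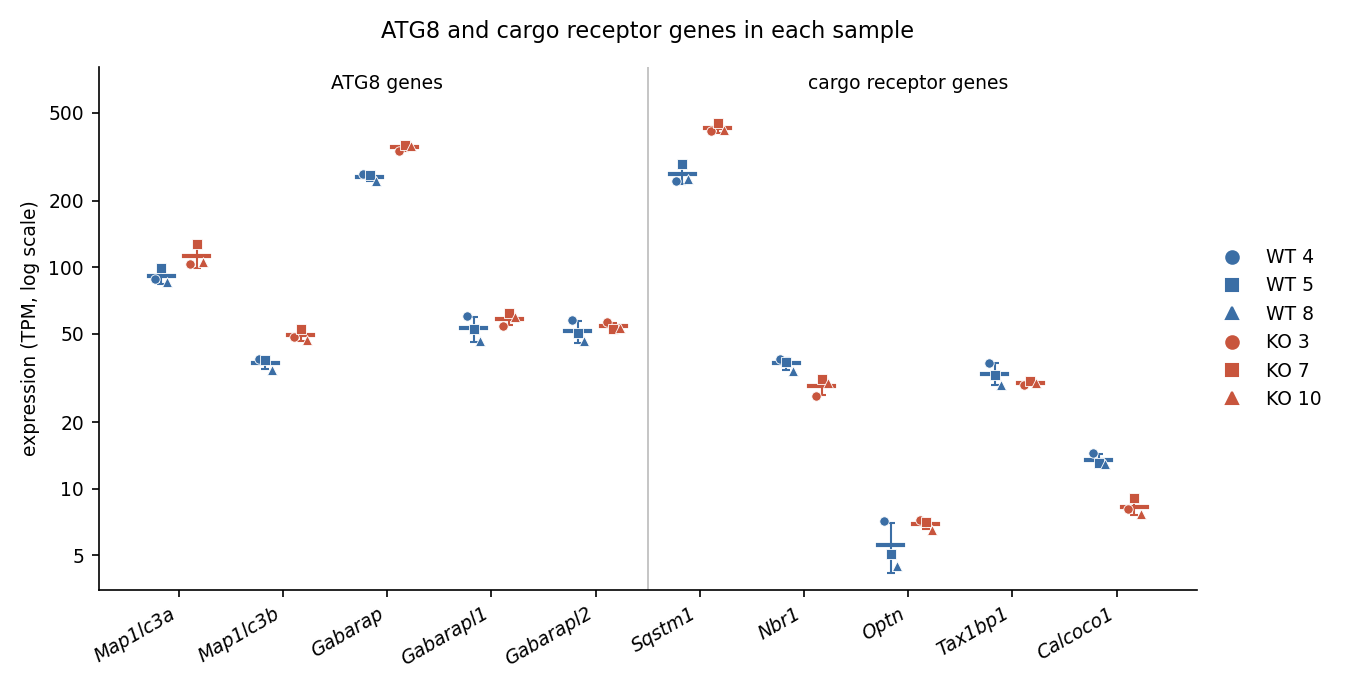
Expression in TPM on a log axis for the 5 ATG8 genes (left) and 5 cargo receptor genes (right), with 1 point per sample (WT blue, KO red); horizontal bars are group means and vertical bars are SD (n = 3). Sqstm1 KO samples (411.5 to 447.4 TPM) lie above all WT samples and Calcoco1 KO samples (7.72 to 9.09 TPM) below them, while Gabarapl1, Gabarapl2, Optn and Tax1bp1 overlap between groups.

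The abundance of the transcripts spanned a wide range. In WT cells, the order of mean level was Sqstm1, Gabarap, Map1lc3a, Gabarapl1, Gabarapl2, Map1lc3b, Nbr1, Tax1bp1, Calcoco1 and Optn, from 263.6 to 5.57 TPM. Sqstm1 and Gabarap overlapped in that order, as did Gabarapl1 and Gabarapl2, Map1lc3b and Nbr1, and Nbr1 and Tax1bp1. In KO cells, Sqstm1 (425.0 TPM) no longer overlapped Gabarap (349.2 TPM), Map1lc3b (49.4 TPM) no longer overlapped the receptors next in order, and Tax1bp1 and Nbr1 overlapped each other. The place of a gene in this order depends on the exon length its reads were divided by, which was 7517 bp for Map1lc3b and 1181 bp for Map1lc3a. By recovered reads, Map1lc3b held 25.7% of the ATG8 total in WT cells and Map1lc3a 9.94%, against 7.57% and 18.7% by TPM.

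The ATG8 genes were considered first. They encode small proteins of 117 to 125 residues, and the end of the coding sequence, where ATG4 cuts, is shown because processing there is what makes them competent for lipid attachment. The lines below give, for 4 of the genes, the final 30 coding bases before the stop codon in GENCODE M21 transcripts (build mm10, plus strand, each stretch within 1 exon), with the codon of the glycine that ATG4 exposes in capitals.
Map1lc3a (chr2:155277605-155277634): gtctacgcctcccaagaaaccttcGGCttc
Gabarap (chr11:69994492-69994521): gcctacagtgatgaaagcgtctatGGTctg
Gabarapl1 (chr6:129541135-129541164): gcctacagtgatgaaagtgtctatGGAaaa
Gabarapl2 (chr8:111952373-111952402): gcctacagcggagagaacacttttGGCttc
In each of these 4 genes, 1 codon follows the glycine codon. Map1lc3b, whose stretch is not shown, differs, with 5 codons after its last glycine codon.

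As translated from these coding sequences, Map1lc3a and Map1lc3b shared 81.8% of aligned residues, Gabarap and Gabarapl1 shared 86.3%, and an LC3 with a GABARAP protein shared 30.8% to 41.0%. At the level of the bases, the aligned parts of Map1lc3a and Map1lc3b were 78.6% identical with no identical run longer than 15 bp, and those of Gabarap and Gabarapl1 were 77.5% identical with no run longer than 17 bp. Among all pairs of the 5 coding sequences, the longest identical run was between 7 and 17 bp. Processed pseudogenes, which are intronless copies of a transcript, are closer. For Gabarapl2, Gm3724 on chromosome 5 matched at 99.4% over 349 bp and was listed at a mean of 22.5 TPM in WT and 20.96 TPM in KO cells. For Map1lc3b, Gm6055 on chromosome 14 matched at 99.7% over 378 bp and was listed at 7.89 and 10.6 TPM. Copies held 4.85% to 7.48% of the reads of Gabarapl2 and its copies together, and 0.934% to 1.26% of those of Map1lc3b.

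Gabarap (ENSMUSG00000018567.14, chr11:69991143-69994951, plus strand), which gives its name to the GABARAP subfamily, was the most abundant ATG8 transcript. It was listed at 263.9, 260.5 and 244.3 TPM in WT 4, 5 and 8 and at 334.3, 358.6 and 354.5 TPM in KO 3, 7 and 10. Every KO sample was above every WT sample, by more than the spread within either group. The mean was 256.2 ± 10.5 TPM (SD, n = 3) in WT and 349.2 ± 12.99 TPM (SD, n = 3) in KO cells. Its log2 fold change of 0.45 (SE 0.09, 95% interval 0.25 to 0.64) was under the fold threshold and its limma adjusted p was 0.00555, so it was not called. With median-of-ratios scaling, which shifts the median of all tested genes by 0.09, the value was 0.55 and it was called higher. It was called in no other setting. Its limma adjusted p ranged from 0.000174 to 0.0168 over the settings with all 6 samples. With 1 sample left out it ranged from 0.00758 to 0.0411.

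Map1lc3b (ENSMUSG00000031812.16, chr8:121590361-121598760, plus strand) encodes LC3B, the protein most used to mark autophagosomes. Its transcript was at 38.4, 38.3 and 34.4 TPM in WT and 48.7, 52.5 and 47.0 TPM in KO samples. The groups did not overlap, with means of 37.0 ± 2.25 TPM (SD, n = 3) and 49.4 ± 2.79 TPM (SD, n = 3). The log2 fold change of 0.41 (SE 0.10, 95% interval 0.18 to 0.63) had a limma adjusted p of 0.0142 and was not called. With median-of-ratios scaling it was 0.51 and was called higher, and it was called in no other setting. Its limma adjusted p ranged from 0.000531 to 0.0293 over the settings with all 6 samples, and from 0.0204 to 0.0476 with 1 sample left out. The log2 difference in recovered reads was 0.44 with and without the pseudogene copies. Its exons overlap those of Zcchc14 on the opposite strand over 58 bp, and the library kit does not mark strand. Short exonic stretches that resemble exons of other genes were also found, of 152 to 193 bp at 95.1% to 98.8% identity, and how the counting treated them was not stated.

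Map1lc3a (ENSMUSG00000027602.9, chr2:155276297-155278073, plus strand) encodes LC3A, the closest relative of LC3B. It was at 88.2, 99.2 and 86.2 TPM in WT and 103.7, 127.8 and 106.0 TPM in KO samples. The lowest KO sample was just above the highest WT sample, so the groups were separated by a narrow gap. Its log2 fold change was 0.30 (SE 0.11, 95% interval 0.04 to 0.55), with a limma adjusted p of 0.0782.

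The remaining pair are GABARAP relatives, of which Gabarapl2 encodes GATE-16, known also from transport within the Golgi. Gabarapl1 (ENSMUSG00000030161.8, chr6:129533160-129542346, plus strand) was at 60.1, 52.4 and 46.4 TPM in WT and 54.3, 62.2 and 59.5 TPM in KO samples. Gabarapl2 (ENSMUSG00000031950.7, chr8:111940703-111953612, plus strand) was at 57.8, 50.4 and 46.3 TPM in WT and 56.6, 52.6 and 53.4 TPM in KO samples. The groups overlapped for both genes, and WT 4 held the highest WT value in each. Their log2 fold changes were 0.15 (SE 0.12, 95% interval -0.11 to 0.41, limma adjusted p = 0.371) and 0.08 (SE 0.11, 95% interval -0.16 to 0.32, limma adjusted p = 0.624). These intervals leave room for a change in either direction. With median-of-ratios scaling, Gabarapl1 was at 0.25 (limma adjusted p = 0.0164) and Gabarapl2 at 0.18 (limma adjusted p = 0.183). Without the 2 most abundant RNAs, Gabarapl1 was at 0.17 (limma adjusted p = 0.0483) and Gabarapl2 at 0.10 (limma adjusted p = 0.418). Neither gene was called in these settings. Without WT 4 the values were 0.25 and 0.16, and without WT 8 they were 0.06 and 0.006, while Gabarapl2 was 0.05 without KO 3. Gabarapl1 overlaps 1700101I11Rik on the opposite strand over 570 bp of exon, and that gene was listed at a mean under 1 TPM in both groups.

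Summed over the family, ATG8 transcripts amounted to 508.4, 500.7 and 457.5 TPM in WT and 597.7, 653.6 and 620.5 TPM in KO samples, a ratio of the group means of 1.28. The sum is weighted toward Gabarap. The share of each gene within that sum, which does not depend on how a library was scaled, was therefore followed as a description, with no test. Gabarap made up 51.9%, 52.0% and 53.4% of ATG8 TPM in WT and 55.9%, 54.9% and 57.1% in KO samples. Gabarapl1 made up 10.8% ± 0.898 (SD, n = 3) in WT and 9.40% ± 0.276 (SD, n = 3) in KO cells, and Gabarapl2 made up 10.5% ± 0.735 (SD, n = 3) and 8.71% ± 0.717 (SD, n = 3). The groups did not overlap for these 3 genes, with Gabarap taking the larger share in KO samples and the other pair the smaller. A larger share of Gabarap leaves a smaller share for the others, so these shares are not independent of each other. In TPM, Gabarapl1 had a mean of 53.0 in WT and 58.7 in KO cells, and Gabarapl2 of 51.5 and 54.2, with overlapping groups. For Gabarapl1, KO minus WT was -1.41 percentage points with all samples and -0.90 without WT 4. The LC3 genes together held 24.9% to 27.5% in WT and 24.7% to 27.6% in KO samples, which overlapped.

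Ratios of pairs of genes within each sample carried a test, although with 3 samples against 3 the exact permutation test, two-sided, cannot go below p = 0.1, and 4 pairs were compared. Gabarap over Gabarapl2 was 4.57, 5.17 and 5.28 in WT and 5.91, 6.82 and 6.64 in KO samples (exact permutation p = 0.1). The KO ratios were all above the WT ratios, by 0.37 on the log2 scale. Map1lc3b over Map1lc3a was 0.407 ± 0.0256 (SD, n = 3) in WT and 0.441 ± 0.0295 (SD, n = 3) in KO cells (exact permutation p = 0.2). Gabarapl1 over Gabarapl2 was 1.03 ± 0.0224 (SD, n = 3) and 1.09 ± 0.115 (SD, n = 3) (exact permutation p = 0.5). The groups overlapped in these last ratios.

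**Figure D2:**
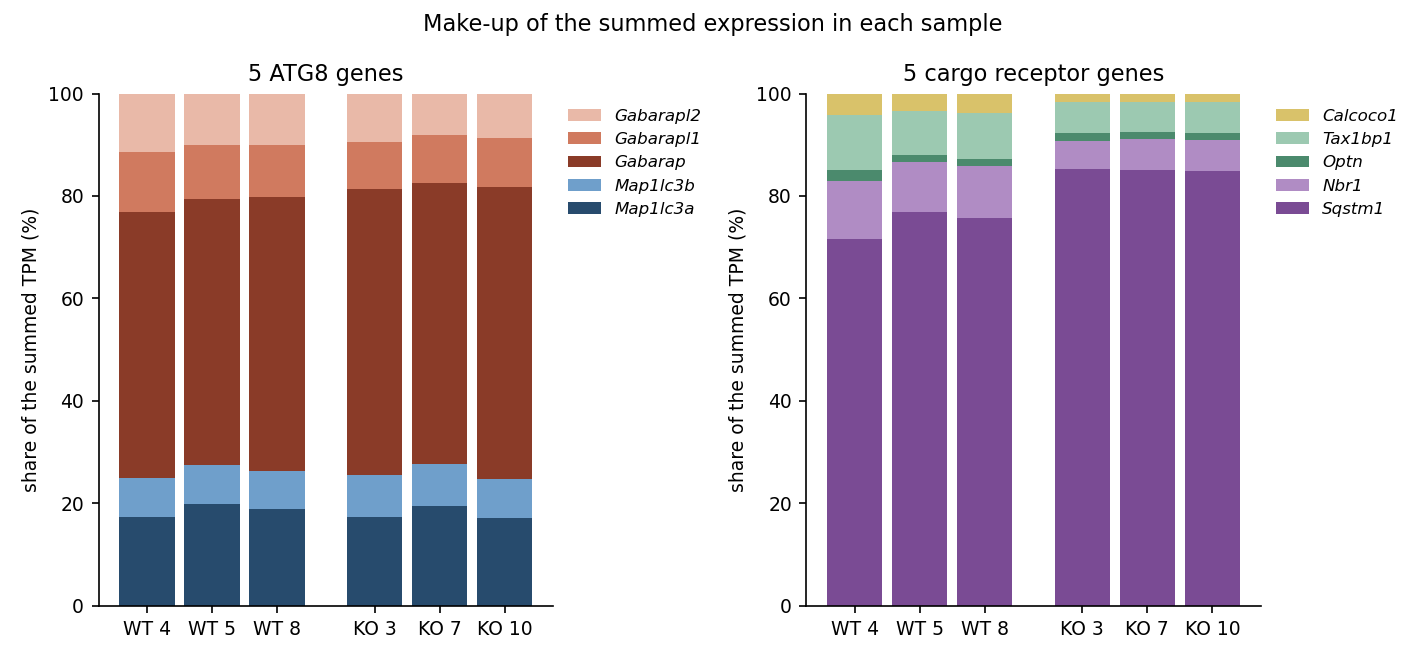
Share of each gene (%) in the summed TPM of the 5 ATG8 genes (left) and of the 5 cargo receptor genes (right), with 1 stacked bar per sample. Gabarap holds 51.9% to 53.4% of ATG8 TPM in WT and 54.9% to 57.1% in KO samples, and Sqstm1 holds 71.7% to 76.8% of receptor TPM in WT and 84.9% to 85.3% in KO samples.

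The cargo receptors were considered next. Receptors bind ATG8 through a short LC3-interacting region, in which an aromatic residue is followed, after a gap of a pair of residues, by an aliphatic one. This region is shown for the receptors in which it is best known, as 30 coding bases from GENCODE M21 transcripts (build mm10), with its 4 codons in capitals.
Sqstm1 (chr11:50202532-50202561, minus strand): gacgatgacTGGACACATTTGtcttcaaaa
Nbr1 (chr11:101575133-101575162, plus strand): tctgaagatTATATCATCATCcttcctgag
Optn (chr2:5045987-5046016, minus strand): gaagactccTTCGTTGAGATCaggatgacc
The regions start at residues 340 of 442 in Sqstm1, 750 of 988 in Nbr1 and 188 of 584 in Optn.

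Sqstm1 (ENSMUSG00000015837.15, chr11:50199366-50210827, minus strand) encodes p62, a receptor for ubiquitin-tagged protein that forms condensates with it and also binds KEAP1, the inhibitor of the oxidative stress factor NRF2. It was at 246.5, 292.8 and 251.6 TPM in WT 4, 5 and 8 and at 411.5, 447.4 and 416.0 TPM in KO 3, 7 and 10. The lowest KO sample stood far above the highest WT sample. The mean rose to 425.0 ± 19.6 TPM (SD, n = 3) from 263.6 ± 25.4 TPM (SD, n = 3), which is 161.2% of the WT level. This corresponds to a log2 fold change of 0.69 (SE 0.10, 95% interval 0.46 to 0.92), with a limma adjusted p of 0.00129, on 6704 to 14549 reads per sample. The call was lost without KO 3 (log2 fold change 0.71, limma adjusted p = 0.00528), KO 7 (0.65, adjusted p = 0.00587) or KO 10 (0.70, adjusted p = 0.00558), and when all 26898 genes were tested (adjusted p = 0.0073). Its exons overlap those of Mrnip on the opposite strand over 580 bp. Mrnip was listed at 1.03, 2.01 and 1.14 TPM in WT and 0.540, 0.557 and 0.494 TPM in KO samples, far below Sqstm1.

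Calcoco1 (ENSMUSG00000023055.10, chr15:102706777-102722178, minus strand) encodes a coiled-coil protein first described as a nuclear receptor coactivator and later as a receptor for the endoplasmic reticulum and the Golgi. It was at 14.5, 13.1 and 12.9 TPM in WT and 8.09, 9.09 and 7.72 TPM in KO samples. The groups lay well apart, in the direction opposite to that of Sqstm1. The mean fell to 8.30 ± 0.712 TPM (SD, n = 3) from 13.5 ± 0.837 TPM (SD, n = 3), leaving 61.6% of the WT level. On the log2 scale the change was -0.64 (SE 0.11, 95% interval -0.90 to -0.38), with a limma adjusted p of 0.00328, on 337 to 703 reads per sample. Leaving out any 1 of the 6 samples ended the call, with limma adjusted p between 0.0056 and 0.0204 and log2 fold changes between -0.70 and -0.59, as did testing all genes or fitting without a variance trend. Stretches of its exons of 150 or 151 bp matched exons of other genes at 95.3% to 96.7% identity.

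Nbr1 (ENSMUSG00000017119.19, chr11:101552149-101581951, plus strand) encodes a ubiquitin receptor related in domain layout to p62, with which it works in the clearance of protein condensates and peroxisomes. It was at 38.7, 37.5 and 34.2 TPM in WT and 26.1, 31.3 and 29.95 TPM in KO samples. Every KO sample was below every WT sample, and KO 3 was the lowest. The log2 fold change was -0.33 (SE 0.11, 95% interval -0.57 to -0.09), with a limma adjusted p of 0.0486, and it was not called. Set against Sqstm1 in the same sample, the ratio Sqstm1 over Nbr1 was 6.37, 7.81 and 7.37 in WT and 15.8, 14.3 and 13.9 in KO samples. The ratio of the group means was 2.04 (log2 difference 1.03, exact permutation p = 0.1), and the lowest KO ratio was well above the highest WT ratio.

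Tax1bp1 (ENSMUSG00000004535.12, chr6:52713729-52766780, plus strand) encodes a relative of CALCOCO1 that brings ubiquitin-tagged aggregates, with NBR1, to the autophagy machinery. It was at 37.1, 32.7 and 29.5 TPM in WT and 29.5, 30.8 and 30.03 TPM in KO samples. The KO values fell within the WT range. A log2 fold change of -0.13 was obtained (SE 0.11, 95% interval -0.37 to 0.12, limma adjusted p = 0.425), which was -0.04 without WT 4 and -0.20 without WT 8. With median-of-ratios scaling the value was -0.02 (limma adjusted p = 0.805).

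Optn (ENSMUSG00000026672.11, chr2:5020642-5064051, minus strand) encodes optineurin, a receptor for damaged mitochondria and bacteria that the kinase TBK1 phosphorylates beside its LC3-interacting region. It was at 7.17, 5.04 and 4.496 TPM in WT and 7.22, 7.04 and 6.51 TPM in KO samples. The WT samples were more scattered than the KO samples, and WT 4 lay among the latter. The log2 fold change was 0.29 (SE 0.16, 95% interval -0.07 to 0.65, limma adjusted p = 0.215), on 160 to 256 reads per sample, the fewest of the 10 genes. It was 0.46 (limma adjusted p = 0.0422) without WT 4 and 0.17 (limma adjusted p = 0.503) without WT 8.

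The receptor transcripts together summed to 344.0, 381.1 and 332.7 TPM in WT and 482.4, 525.6 and 490.2 TPM in KO samples, a ratio of the group means of 1.42, and Sqstm1 accounted for most of the sum. Its share was 71.7%, 76.8% and 75.6% in WT and 85.3%, 85.1% and 84.9% in KO samples. The share of Nbr1 was 10.5% ± 0.727 (SD, n = 3) in WT and 5.82% ± 0.364 (SD, n = 3) in KO cells, and that of Calcoco1 was 3.84% ± 0.387 (SD, n = 3) and 1.66% ± 0.0789 (SD, n = 3). The share of Tax1bp1 was 9.41% ± 1.21 (SD, n = 3) and 6.03% ± 0.154 (SD, n = 3). For these 4 genes the groups did not overlap, while Optn overlapped at 1.59% and 1.39%. A larger share of Sqstm1 leaves a smaller share for the others, so these values are not independent of each other.

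**Figure D3:**
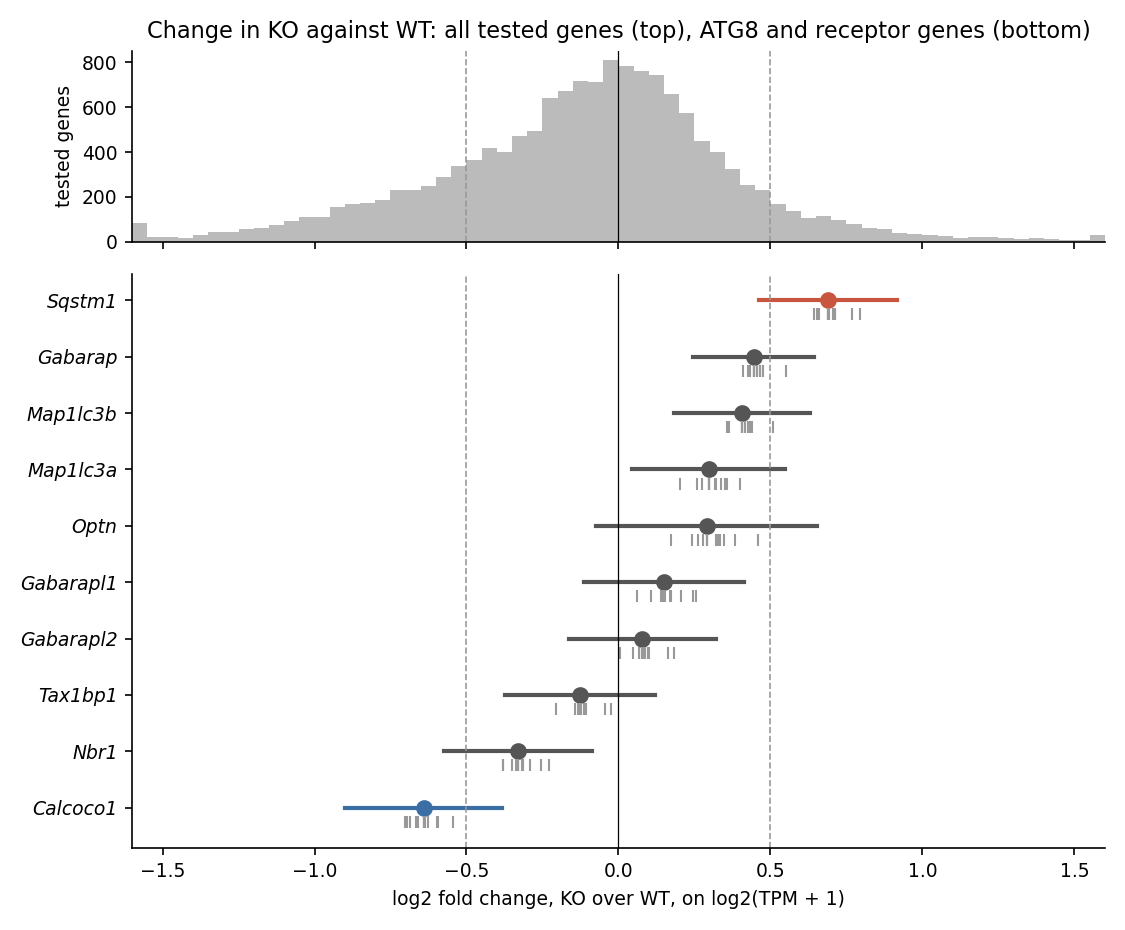
Log2 fold change of KO over WT on log2(TPM + 1), for all 14799 tested genes as a histogram (top, with values beyond the axis placed in the end bins) and for the 10 genes (bottom, points with 95% intervals from limma; red called higher, blue called lower, grey not called); dashed lines mark the fold thresholds of 0.5 and -0.5, and small ticks give the value under each alternative setting and with each sample left out. Sqstm1 (0.69) and Calcoco1 (-0.64) lie beyond the thresholds, and no tick crosses to the other side of 0.

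By likeness of profile, taken as the root mean square difference between log2(TPM + 1) values centred on each gene's mean over the 6 samples, the 3 tested genes nearest to Sqstm1 were Mknk2 (0.0325), Traf4 (0.0362) and Fam43a (0.0441). Mknk2, a kinase of the translation factor eIF4E, was at 51.2 TPM in WT and 83.6 TPM in KO cells, and Traf4, a signalling adaptor, was at 69.6 and 116.4 TPM. Those nearest to Calcoco1 were Nupl2 (0.0284), Cyb5r4 (0.0340) and Lrp10 (0.0390). Lrp10, a lipoprotein receptor relative, was at 75.5 TPM in WT and 49.9 TPM in KO cells. The measure compares 14798 other genes and rests on 6 samples that split into groups, so that it mostly follows the difference between the groups.

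The start sites of 3 receptor genes lie within 1 kb of that of a gene read in the opposite direction. For Tax1bp1 this is Gm43966, 226 bp away, which has no row in the table used here. For the others the partner was measured, which allows the members of a pair to be compared in the same cells. Sqstm1 starts 63 bp from Mgat4b, a glycosyltransferase gene, and Nbr1 starts 194 bp from Brca1, a DNA repair gene, by the GENCODE start sites. Stretches between the start sites, free of any GENCODE gene, are shown from RefSeq (build GRCm38.p6, mm10), 5′ to 3′ on the strand of the receptor gene, with GGGCGG (the GC box) and CCAAT in either orientation in capitals. The stretch of Sqstm1 runs up to its GENCODE start (62 bases), and that of Nbr1 stops at its RefSeq start (151 bases), which lies before the GENCODE start. The bases before Calcoco1 are shown for comparison as the promoter of the gene called lower.
Sqstm1 and Mgat4b (chr11:50210828-50210889, minus strand): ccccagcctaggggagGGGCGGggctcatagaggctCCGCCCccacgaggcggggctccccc
Nbr1 and Brca1 (chr11:101551956-101552106, plus strand): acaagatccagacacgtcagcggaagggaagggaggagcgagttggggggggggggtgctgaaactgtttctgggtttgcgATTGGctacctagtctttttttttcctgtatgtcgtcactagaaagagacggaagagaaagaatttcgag
Calcoco1 (chr15:102722179-102722428, minus strand): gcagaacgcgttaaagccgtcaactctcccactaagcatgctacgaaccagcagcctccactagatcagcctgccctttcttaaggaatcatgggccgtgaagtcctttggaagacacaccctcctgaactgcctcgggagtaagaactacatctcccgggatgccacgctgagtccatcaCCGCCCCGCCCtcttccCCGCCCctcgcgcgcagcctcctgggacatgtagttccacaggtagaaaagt
G and C made up 79.0% of the first stretch, 50.3% of the second and 57.6% of the third.

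Within the pair of Sqstm1, the partner did not follow. Mgat4b was at 57.4, 59.0 and 56.7 TPM in WT and 52.6, 64.6 and 58.0 TPM in KO samples, with the groups overlapping and a log2 fold change of 0.01 (limma adjusted p = 0.943). Within the pair of Nbr1, the partner was lower by more than Nbr1 itself. Brca1 was at 7.72, 9.30 and 7.67 TPM in WT and 3.09, 4.22 and 3.79 TPM in KO samples, and it fell by 0.98 on the log2 scale (limma adjusted p = 0.00135). The difference between the members of a pair was not tested.

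**Figure D4:**
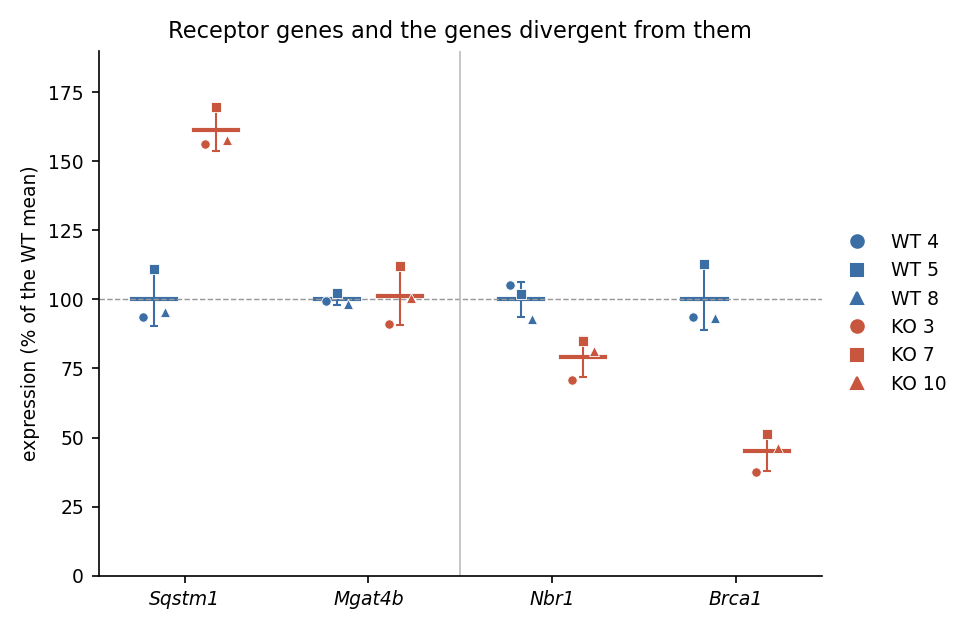
Expression as a percentage of the WT mean of each gene, for Sqstm1 and Nbr1 and the genes read in the opposite direction from a nearby start site, Mgat4b and Brca1; points are samples (WT blue, KO red), horizontal bars are means and vertical bars are SD (n = 3). KO samples of Sqstm1 average 161.2% of WT while Mgat4b overlaps between the groups, and the KO samples of Nbr1 (mean 79.1%) and Brca1 both lie below their WT samples.

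RefSeq promoter windows (250 bases before to 50 after a start site) were available for 9 of the 10 genes, with 11 windows in all; Map1lc3a had none. GGGCGG on either strand was present in 8 of the 11 windows, beside 35.7% of all 32851 promoters. The CLEAR element core CACGTG, the letters bound by TFEB and other E-box factors, was in 0 of the 11, beside 7.2% of all promoters. TGACNNNGC, the core of the antioxidant response element that NRF2 binds, was in 2 of the 11 (of Map1lc3b and Tax1bp1), beside 12.4%, and CCAAT was in 2 of the 11 (both of Nbr1), beside 37.4%. All were searched on both strands. A match is a description of letters, and its lack in a window of this length says nothing of the factor.

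Other genes around ATG8 and its receptors were compared as lists written from gene names. Beyond the 5 receptors above, 18 of 20 genes for receptors of the endoplasmic reticulum, mitochondria, ferritin and other cargo were tested, of which 0 were higher and 1 was lower by limma, beside 1.64% and 9.03% of all tested genes, with a median log2 fold change of -0.10 and an unadjusted p under 0.05 for 0 in the positive and 2 in the negative direction, beside 12.2% and 27.2% of all tested genes. The gene that fell was Fkbp8, an ATG8-binding protein of the outer mitochondrial membrane, at 57.7, 63.1 and 58.8 TPM in WT and 38.7, 42.3 and 40.1 TPM in KO samples (log2 fold change -0.56, limma adjusted p = 0.00256). The call was lost with all genes tested, with median-of-ratios scaling and without WT 5, WT 8, KO 3, KO 7 or KO 10, each leaving 0 genes called. The most abundant, Rtn3, a receptor of endoplasmic reticulum tubules, was at 100.8 ± 12.2 TPM (SD, n = 3) in WT and 99.2 ± 6.78 TPM (SD, n = 3) in KO cells, and Phb2, an inner mitochondrial membrane receptor, was at 82.8 ± 4.08 and 74.8 ± 7.18 TPM (SD, n = 3).

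The enzymes that process ATG8 and attach it to lipid had a lower median, -0.32, with 0 of 11 tested genes higher and 3 lower, beside 1.64% and 9.03% of all tested genes. The point estimate was negative for each of the 11, beside 57.4% of all tested genes. Atg4a, a protease that prefers GABARAP proteins, was at 15.2, 14.7 and 11.6 TPM in WT and 4.86, 5.74 and 4.97 TPM in KO samples (log2 fold change -1.25, limma adjusted p = 0.000368). Atg4c, another protease of that family, was at 10.0, 10.1 and 9.63 TPM in WT and 3.08, 5.64 and 4.65 TPM in KO samples (log2 fold change -1.03, limma adjusted p = 0.0026). Atg7, the E1-like enzyme that activates ATG8, was at 7.30, 7.45 and 6.92 TPM in WT and 4.32, 4.09 and 4.36 TPM in KO samples (log2 fold change -0.65, limma adjusted p = 0.00375). KO samples lay below WT samples for all 3. Atg4b, the protease that processes LC3B most efficiently, was at 15.6 ± 1.33 and 14.3 ± 0.988 TPM (SD, n = 3), and the 2 most abundant genes of the list, the E2-like enzyme gene Atg3 (37.7 and 35.9 TPM) and Atg5 (33.9 and 26.8 TPM), were not called. In all, 5 of the 11 genes had an unadjusted p under 0.05, each with a negative estimate, beside 27.2% of all tested genes, and 1 gene was called when all genes were tested or without WT 4, WT 5 or WT 8.

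Adaptors that bind ATG8 on the vesicle to move, tether or remodel it numbered 12, with 0 higher and 2 lower, beside 1.64% and 9.03% of all tested genes, and a median log2 fold change of -0.19, beside -0.07. Plekhm1, which links ATG8 to the tethering complex of late endosomes and lysosomes, was at 12.2, 13.4 and 12.6 TPM in WT and 7.07, 7.02 and 7.11 TPM in KO samples (log2 fold change -0.77, limma adjusted p = 0.0011). Clec16a, a protein of endosomes and mitophagy, was at 8.26, 7.80 and 6.86 TPM in WT and 2.91, 3.60 and 3.52 TPM in KO samples (log2 fold change -0.99, limma adjusted p = 0.00098). Nedd4, a ubiquitin ligase and the most abundant of the list, was at 486.0 TPM in WT and 456.7 TPM in KO cells, and Tbc1d15, which acts on RAB7 at mitochondria, was at 44.0 and 39.9 TPM, and neither was called. At an unadjusted p under 0.05 there were 0 positive and 4 negative genes, beside 12.2% and 27.2% of all tested genes. With all genes tested 0 were called, and without WT 5 or KO 10 there was 1.

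Among 19 kinases and binding partners of the receptors, 0 were higher and 2 were lower, which is near the 1.64% and 9.03% of all tested genes, with a median of -0.11, beside -0.07. Both genes called encode partners of p62. Traf6, a ubiquitin ligase, was at 10.0, 10.4 and 9.07 TPM in WT and 5.01, 5.92 and 5.43 TPM in KO samples (log2 fold change -0.75, limma adjusted p = 0.00205), and Map2k5, a kinase that binds the PB1 domain of p62, was at 17.0, 17.2 and 15.5 TPM in WT and 9.12, 9.05 and 9.06 TPM in KO samples (log2 fold change -0.80, limma adjusted p = 0.000771). Keap1, the NRF2 inhibitor that p62 binds, was at 19.8 ± 2.44 and 21.4 ± 2.28 TPM (SD, n = 3), and Tbk1, the kinase of OPTN, was at 27.0 ± 3.67 and 26.9 ± 2.53 TPM (SD, n = 3), with overlapping groups. Csnk2b (102.7 and 99.4 TPM) and Prkci (83.5 and 81.7 TPM), the most abundant of the list, were not called. Ikbke, a relative of Tbk1 (log2 fold change -0.90, limma adjusted p = 0.00752), and Tbkbp1 (-0.55, adjusted p = 0.0094) had negative estimates. Ulk1 had a positive one (0.502, limma adjusted p = 0.00821). None of them was called. Limma adjusted p was under 0.05 for 7 of the 19, beside 27.8% of all tested genes. Unadjusted p was under 0.05 for 1 positive and 8 negative genes, beside 12.2% and 27.2% of all tested genes. The count of lower genes was 1 with all genes tested or without WT 4, WT 5, WT 8, KO 3 or KO 10, and 4 with voom on recovered reads, and 1 gene was called higher with voom or median-of-ratios scaling.

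Of 12 transcription factors known to act on ATG8 or receptor genes, 0 were called, while 5 had a limma adjusted p under 0.05 (beside 27.8% of all tested genes) and 8 an unadjusted p under 0.05 (6 positive and 2 negative, beside 12.2% and 27.2% of all tested genes), with a median log2 fold change of 0.25. The most abundant were Atf4, a factor of the integrated stress response, at 284.5 ± 34.99 and 316.4 ± 51.9 TPM (SD, n = 3), and Nfe2l2, which encodes NRF2, at 76.5, 78.7 and 73.6 TPM in WT and 82.4, 103.7 and 100.1 TPM in KO samples. The KO samples of Nfe2l2 lay above the WT samples without passing the test (log2 fold change 0.31, limma adjusted p = 0.0605). These 5 genes were not of 1 direction. Tfeb, a factor of lysosome and autophagy genes, was at 2.16, 2.70 and 2.60 TPM in WT and 0.461, 1.17 and 0.968 TPM in KO samples (log2 fold change -0.92, limma adjusted p = 0.00917, not called). The other 4 had positive estimates. Tfe3, of the same family as Tfeb, was at 18.1 ± 1.38 TPM (SD, n = 3) in WT and 23.3 ± 1.81 TPM (SD, n = 3) in KO cells (log2 fold change 0.35, limma adjusted p = 0.041). The stress factors Cebpb (9.79 and 23.9 TPM) and Ddit3 (24.5 and 42.95 TPM) had log2 fold changes of 1.199 and 0.81 (limma adjusted p = 0.0104 and 0.0155), and Foxo3, a factor of autophagy genes, was at 21.8 and 31.0 TPM (log2 fold change 0.48, limma adjusted p = 0.0174). Voom on recovered reads called 1 gene higher and 1 lower, and 1 was higher with median-of-ratios scaling and without WT 5 or KO 10.

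Genes known as targets of NRF2, of which Sqstm1 is another, had the highest median of the lists, 0.45, with 3 of 13 higher and 0 lower, beside 1.64% and 9.03% of all tested genes. Nqo1, a quinone reductase, was at 41.6, 22.2 and 23.4 TPM in WT and 62.6, 68.7 and 67.6 TPM in KO samples (log2 fold change 1.22, limma adjusted p = 0.00242). Srxn1, which repairs oxidised peroxiredoxins, was at 69.1, 70.1 and 65.8 TPM in WT and 109.5, 117.6 and 127.8 TPM in KO samples (log2 fold change 0.78, limma adjusted p = 0.000623). Ftl1, the ferritin light chain, was at 245.0, 242.0 and 220.7 TPM in WT and 357.6, 350.4 and 318.9 TPM in KO samples (log2 fold change 0.54, limma adjusted p = 0.00312). The KO samples of these 3 genes were all above the WT samples. The ferritin heavy chain gene Fth1 was at 240.8 ± 19.3 and 331.0 ± 9.29 TPM (SD, n = 3) and was not called (limma adjusted p = 0.00649). In contrast, Hmox1, which degrades haem, overlapped between groups, with WT 4 (242.1 TPM) above all KO samples, and G6pdx, a pentose phosphate enzyme, had a negative estimate of -0.20 (limma adjusted p = 0.265). Unadjusted p was under 0.05 for 10 positive and 0 negative genes, beside 12.2% and 27.2% of all tested genes. The count of higher genes moved with the setting: it was 5 with median-of-ratios scaling or without WT 4, and 1 with all genes tested or without WT 5, WT 8, KO 3 or KO 7.

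**Figure D5:**
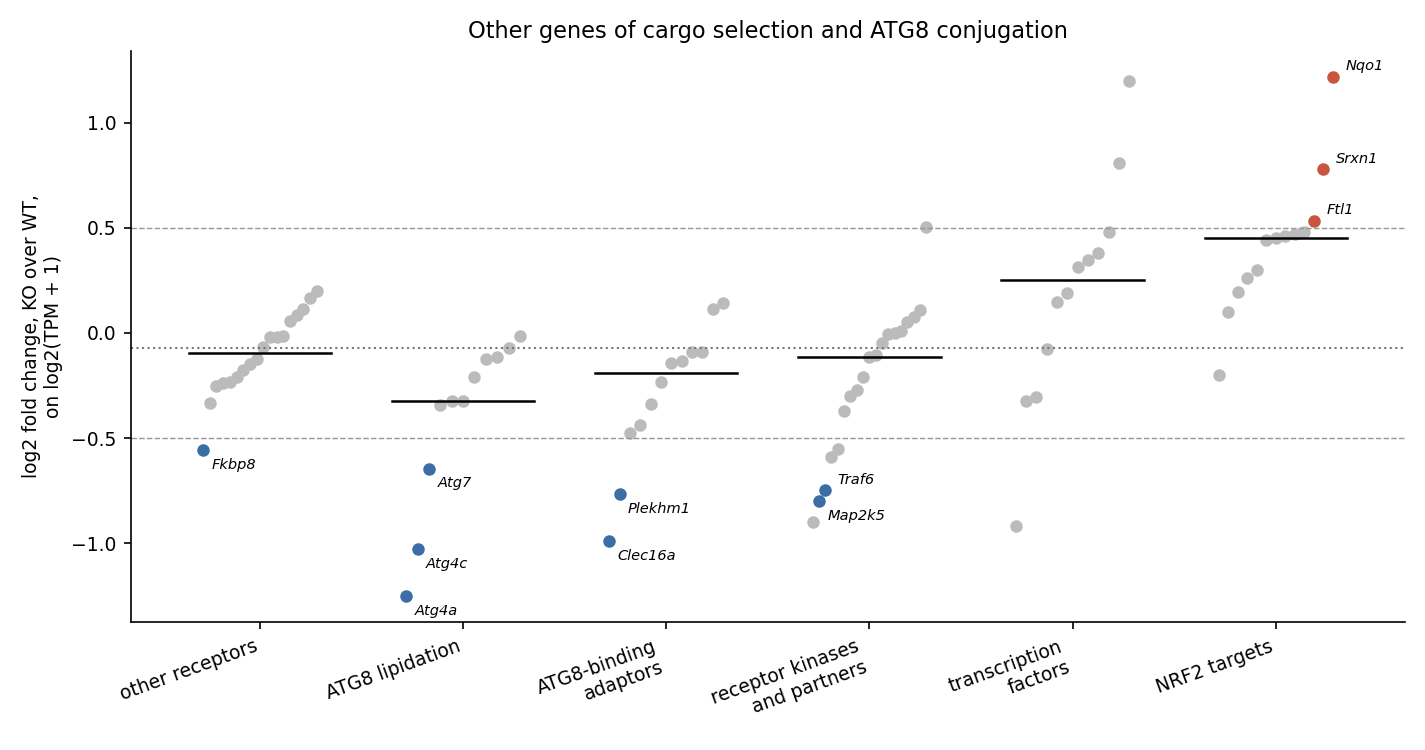
Log2 fold change of KO over WT on log2(TPM + 1) for each tested gene (points) of 6 lists of genes around ATG8 and cargo receptors; short lines are list medians, the dotted line is the median of all tested genes (-0.07), dashed lines are the fold thresholds, and genes called higher (red) or lower (blue) are named. The median is lowest for ATG8 lipidation (-0.32) and highest for NRF2 targets (0.45).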

How the data were processed

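Primary MEFs (3 WT and 3 KO samples, grouped by title and genotype) were profiled by RNA sequencing with a NEBNext Ultra kit, which does not mark strand. Per the methods, the authors aligned reads to mm10 with STAR and used DESeq2; the processing notes also name Bowtie 0.12.2, without a role. The counting program was not given in the sources used here. The authors deposited TPM for 26898 genes, each column summing to 1000000. Their own comparison, deposited as log2 fold changes and adjusted p-values, was not used.

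Genes with a group mean of at least 1 TPM were tested (14799) on log2(TPM + 1) by limma 3.58.1 under R 4.3.3, using all 6 samples, a variance trend and no covariate; log2 fold changes understate the change of low genes. Genes were called at a Benjamini-Hochberg adjusted p under 0.005 and a log2 fold change beyond 0.5 or -0.5, thresholds of the study. TPM keeps no depth, but TPM times merged exon length (GENCODE M21) gave whole multiples for 100% of values checked, at a tolerance of 0.05, from which reads were recovered. Near-identical copies were aligned over at least 300 bp at 95% identity or more. Alternatives changed the pseudocount, filter, scaling, variance trend, threshold, use of recovered reads (voom) and samples.

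The members and lists were chosen with earlier results of these data known. Named were all 10 members, Kansl1, each list's called genes (up to 4 per direction) and its 2 most abundant genes, and the 3 nearest profiles of each called member. Atg4b, Keap1, Tbk1, Ikbke, Tbkbp1, Ulk1, Tfeb, Tfe3, Cebpb, Ddit3, Foxo3, Hmox1, G6pdx and the genes at shared start sites or sharing sequence were named after their values were seen. Some items are not reported here.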

Additional observations from a re-analysis of the deposited data

How the results depend on the processing

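No fold change of the 10 genes or of Kansl1 changed sign in any alternative that was run, and Kansl1 was called lower in each. The number of genes called higher among the 10 was 0 when all genes were tested and 3 with median-of-ratios scaling (Sqstm1, Gabarap and Map1lc3b), and 0 to 1 with each sample left out. The number called lower was 0 when all genes were tested, 0 without a variance trend and 0 to 0 with each sample left out, where the adjusted p of Calcoco1 was between 0.0056 (without KO 7) and 0.0204 (without KO 10). The cause of these losses was not tested; testing all genes adds genes with low levels to the adjustment, and leaving out a sample reduces each fit to 5 samples. Without KO 3, KO 7 or KO 10, Sqstm1 was not called. The share of Map1lc3b among ATG8 genes was 0.345 percentage points higher in KO cells by TPM and 1.01 by recovered reads, an alternative chosen after seeing the data, with overlapping groups by each. Adding the reads of near-identical copies was chosen likewise. By TPM, the difference in the share of Map1lc3b was 0.229 percentage points without KO 3 and 0.515 without KO 10. Over all genes, 242 were higher and 1337 lower, against 55 and 286 with all genes tested, 473 and 1440 with median-of-ratios scaling, 433 and 2152 with voom on recovered reads, 694 and 2453 at an adjusted p under 0.05, and 84 to 252 and 617 to 938 with 1 sample left out (252 and 829 without WT 4, 141 and 617 without WT 5, 112 and 850 without WT 8, 123 and 654 without KO 3, 84 and 938 without KO 7, 124 and 786 without KO 10). Without Gm23935 and Gm24270, the 2 most abundant RNAs, 306 were higher and 1764 lower. In that setting the limma adjusted p was 0.00203 for Nbr1 and 0.0159 for Map1lc3a, and neither was called. No paired analysis was run, since the embryo or litter of each sample was not stated. The numbers of the WT samples (4, 5 and 8) and of the KO samples (3, 7 and 10) name no pairs. Optn rested on the fewest reads (160 to 256), and its coefficient of variation was 25.35% between WT and 5.35% between KO samples.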
